A study of Mus musculus with 4 samples.

Results

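The 10 genes described here encode or control the mucus of secretory epithelium. They were taken as a list from the 23185 named genes of the arrays, and all 10 were measured, each by 1 probe set. The list was chosen with earlier results of these data known. Shares of all named genes given below are therefore background and no test of the list. They are the gel-forming mucins Muc5ac (Entrez gene 17833) and Muc5b (74180), the products secreted with mucins Clca1 (23844), Tff1 (21784) and Tff2 (21785), the mucin processing enzymes Gcnt3 (72077) and Agr2 (23795), the transcription factors Spdef (30051) and Foxa3 (15377), and the membrane mucin Muc1 (17829). RNA of 4 mouse cell populations was hybridised, 1 array per population. Day0 is the uncultured club cell isolate of adult lung, 3w+Dox (Club-iPL in the labels) is club cells kept for 3 weeks with doxycycline, 3w+Dox+2w-Dox (called withdrawn cells below) had 2 further weeks without the drug, and iPS is pluripotent cells derived from club cells. The labels give adult lung as the origin of all 4 populations. They name no strain, no sort and no transgene construct, and a culture of the same age without the drug was not analysed here.

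Airway mucus is built from gel-forming mucins, very large glycoproteins that are folded and cross-linked in the endoplasmic reticulum, decorated with O-linked glycans in the Golgi apparatus and stored in granules. In the mouse airway, club cells make Muc5b at rest, and Muc5ac is the mucin of the goblet (mucous) state that club cells can enter on allergic or growth factor stimulation. The transcription factors Spdef and Foxa3 are known to drive that state in airway epithelium. Trefoil peptides and Clca1 are secreted together with mucins, and both Muc5ac and Tff1 are also products of the surface cells of the stomach.

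Values are log2 signals from RMA, a method that corrects background, equalises the distribution of the arrays and summarises the probes of each gene. A difference of 1 is 2-fold and a difference of 2 is 4-fold. Counts below are of genes with a difference of 4-fold or more whose brighter signal reaches 6.67. That value is the overall median and serves as the limit for dim signals. With 1 array per population there is no replicate, no error and no p-value, and each difference compares 2 arrays. Where 1 of the signals is dim, the size of a fold is not exact, and signals of different genes are not compared in height. The Day0 array held 18 of 19 measured club cell markers at or above 6.67, and also 19 of 19 ciliated and 13 of 13 alveolar type 2 markers. The iPS array held 13 of 14 pluripotency markers above that limit, against 1 of 14 on each other array. Fibroblast markers at or above it were 4 of 16 (Day0), 15 (3w+Dox), 15 (3w+Dox+2w-Dox) and 13 (iPS). In RNA from a whole population, fewer cells of a type and less RNA per cell cannot be told apart.

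RefSeq promoter sequences (GRCm38.p6) matched 4 of the 10 genes: Spdef, Foxa3, Agr2 and Muc1. At 3w+Dox Muc5ac was brighter than at Day0, and Muc1, not shown here, was 1.76-fold dimmer. The sequences of the factors Spdef and Foxa3 and of the mucin folding gene Agr2 are shown because these genes were more than 2-fold dimmer. Each is the 250 bases before the annotated start, 5′ to 3′ on the gene's strand, at chr17:27728952-27729201 (minus strand), chr7:19023540-19023789 (minus strand) and chr12:35992675-35992924 (plus strand). Capitals mark matches on either strand to the ETS core GGAAG, the TATA box TATAAA and the CCAAT box CCAAT, which do not overlap each other here.
Spdef: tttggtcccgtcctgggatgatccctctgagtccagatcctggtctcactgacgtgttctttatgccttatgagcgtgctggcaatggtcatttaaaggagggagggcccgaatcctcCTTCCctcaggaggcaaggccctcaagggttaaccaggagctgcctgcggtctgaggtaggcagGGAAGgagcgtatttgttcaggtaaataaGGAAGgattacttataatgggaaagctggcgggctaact
Foxa3: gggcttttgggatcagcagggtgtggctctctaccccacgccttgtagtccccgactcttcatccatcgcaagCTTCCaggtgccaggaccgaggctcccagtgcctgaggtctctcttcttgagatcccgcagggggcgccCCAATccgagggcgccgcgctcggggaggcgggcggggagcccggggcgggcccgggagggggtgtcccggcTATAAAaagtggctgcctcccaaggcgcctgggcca
Agr2: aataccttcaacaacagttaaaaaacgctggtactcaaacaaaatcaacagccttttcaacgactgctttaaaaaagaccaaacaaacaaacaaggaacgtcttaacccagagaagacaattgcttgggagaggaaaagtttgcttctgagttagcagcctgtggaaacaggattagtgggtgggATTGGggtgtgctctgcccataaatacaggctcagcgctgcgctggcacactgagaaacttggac
The Spdef window holds 3 ETS cores, which begin 132, 68 and 39 bases before the start, and no TATA or CCAAT box. The Foxa3 window holds 1 ETS core, a CCAAT box 108 bases and a TATA box 36 bases before the start, and the Agr2 window holds 1 inverted CCAAT box 65 bases before it. Of 32851 such windows, 64.1% hold an ETS core, 12.4% a TATA box and 33.8% a CCAAT box. The windows differ in composition. Foxa3 has 68.8% G and C with 18 CpG dinucleotides, Spdef 52.8% with 7, and Agr2 44.4% with 5, beside a median of 52.4% over all windows. The letters TGTTTAC of the forkhead motif (in 3.17% of all windows) and CCGGAT of the SPDEF motif (4.94%) were searched on both strands and are not in the windows of these genes or of Muc1. Other forms of these motifs were not searched. The Spdef window does hold gtaaata, the reverse complement of the forkhead variant TATTTAC. The Agr2 window holds acaaaca, the reverse complement of the variant TGTTTGT. These are examples only, and the shares of such variants over all windows were not counted. The Spdef start used by the table lies inside the annotated span of the gene.

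Cells at 3w+Dox had much brighter signals than Day0 for several mucus products, while Tff2, Agr2 and the factors Spdef and Foxa3 were dimmer. Muc5ac, Gcnt3, Tff1 and Clca1 were at least 4-fold higher than at Day0, and Tff2 and Agr2 at least 4-fold lower. These are 4 and 2 of 10 genes, where 4.31% of all named genes were higher and 2.88% lower. The median difference of the 10 genes was 0.35, beside -0.09 for all named genes, and hides a range from -2.63 to 4.73. Of the 10 genes, 5 were brightest at 3w+Dox and 5 at Day0, and none was brightest in withdrawn or iPS cells. Signals reached 6.67 for 8 (Day0), 9 (3w+Dox), 6 (withdrawn) and 3 (iPS) of the genes.

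**Figure D1:**
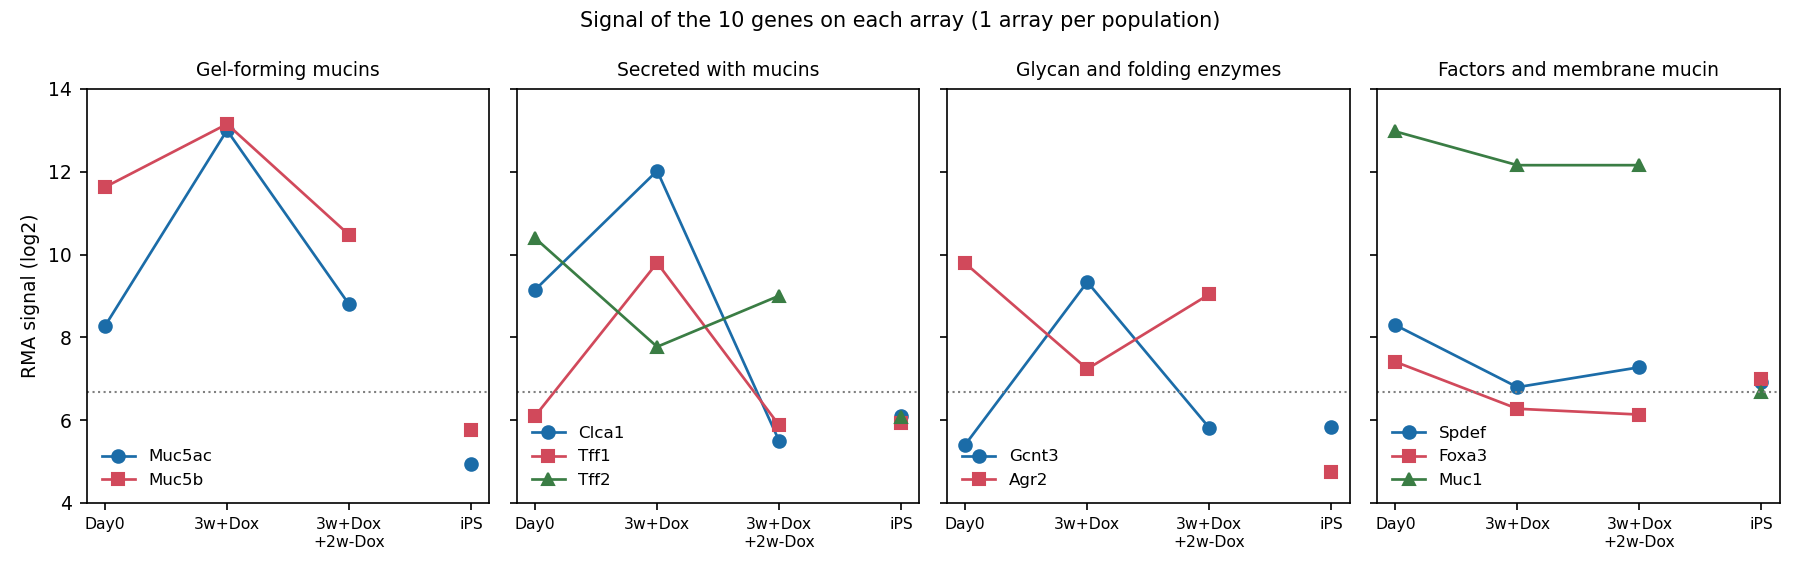
RMA signal (log2, vertical axis) of the 10 genes on the arrays of the 4 populations (horizontal axis), 1 point per array, with lines joining the 3 arrays of the doxycycline course as a guide only and a dotted line at 6.67. Muc5ac, Muc5b, Clca1, Tff1 and Gcnt3 peak at 3w+Dox, Agr2 and Tff2 dip there, and every gene lies between 4.75 and 7.002 in iPS cells.

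Muc5ac read 8.27 (Day0), 13.002 (3w+Dox), 8.80 (withdrawn) and 4.94 (iPS). The 3w+Dox signal thus stood apart from the other 3 arrays, 26.5-fold above Day0, and that difference ranked 142 from the top of 23185 named genes. Withdrawn cells were 18.4-fold below 3w+Dox and 1.44-fold above Day0. Muc5b, the resting airway mucin, read 11.63, 13.15, 10.48 and 5.75 on the same arrays. It was bright on all 3 arrays of the doxycycline course, and its 2.88-fold higher signal at 3w+Dox did not reach 4-fold. After withdrawal Muc5b was 6.39-fold lower than at 3w+Dox and 2.22-fold lower than at Day0. At 3w+Dox both mucins read close to 13.85, the brightest signal of that array, where signals can saturate and differences can come out too small.

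These mucins lie next to each other in the genome, in the RefSeq gene order Muc6, Muc2, Muc5ac, Muc5b, and the 4 genes did not follow 1 pattern. Muc2, the gel-forming mucin of the intestine, read 5.64 (Day0), 7.53 (3w+Dox), 7.81 (withdrawn) and 6.26 (iPS). It was 1.90 higher at 3w+Dox than at Day0, just under the 4-fold limit, and 2.18 higher in withdrawn cells, past it. Muc2 was therefore brightest in the array on which Muc5ac read close to its Day0 signal. Muc6, the mucin of gastric glands, read 5.57, 5.37, 5.30 and 5.23 and was dim throughout. Tollip, an adaptor of Toll-like receptor signalling and the next gene beyond Muc5b, read 11.03, 10.98, 10.97 and 10.40.

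Clca1, a secreted metalloprotease that acts on mucus, read 9.15 (Day0), 12.02 (3w+Dox), 5.49 (withdrawn) and 6.09 (iPS). Its 3w+Dox signal was 7.34-fold that of Day0. Unlike that of Muc5ac, its signal in withdrawn cells lay well below Day0. Withdrawn cells were 92.4-fold below 3w+Dox and 12.6-fold below Day0. The difference of -6.53 after withdrawal ranked 2 from the bottom of all named genes. Clca1 was the only one of the 10 genes at least 4-fold below Day0 in withdrawn cells. Its neighbours Clca2, Clca4a, Clca4b and Clca3b read between 2.80 and 5.53 on every array. Clca3a2 read 3.01, 5.87, 3.50 and 3.68, so it also was brightest at 3w+Dox, but below 6.67 and therefore not counted, and the same holds for Clca3a1, with 3.98, 6.50, 5.41 and 4.70. The Clca genes are close copies of each other, and how far their probe sets read each other's RNA is uncertain.

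The trefoil peptides Tff1 and Tff2, small secreted proteins that protect mucosa and bind mucins, differed in opposite directions although their genes are neighbours. Tff1 read 6.10 (Day0), 9.80 (3w+Dox), 5.87 (withdrawn) and 5.92 (iPS). It lay below 6.67 on all arrays except 3w+Dox, where it was 13.01-fold above Day0 and 15.2-fold above withdrawn cells. Tff2 read 10.40, 7.77, 9.003 and 6.06. Tff2 was 6.17-fold lower at 3w+Dox than at Day0, and withdrawn cells lay between both, 2.35-fold above 3w+Dox and 2.62-fold below Day0. Tff3, the next gene in the cluster, read 6.16, 5.55, 5.65 and 5.99, which is dim on every array.

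**Figure D2:**
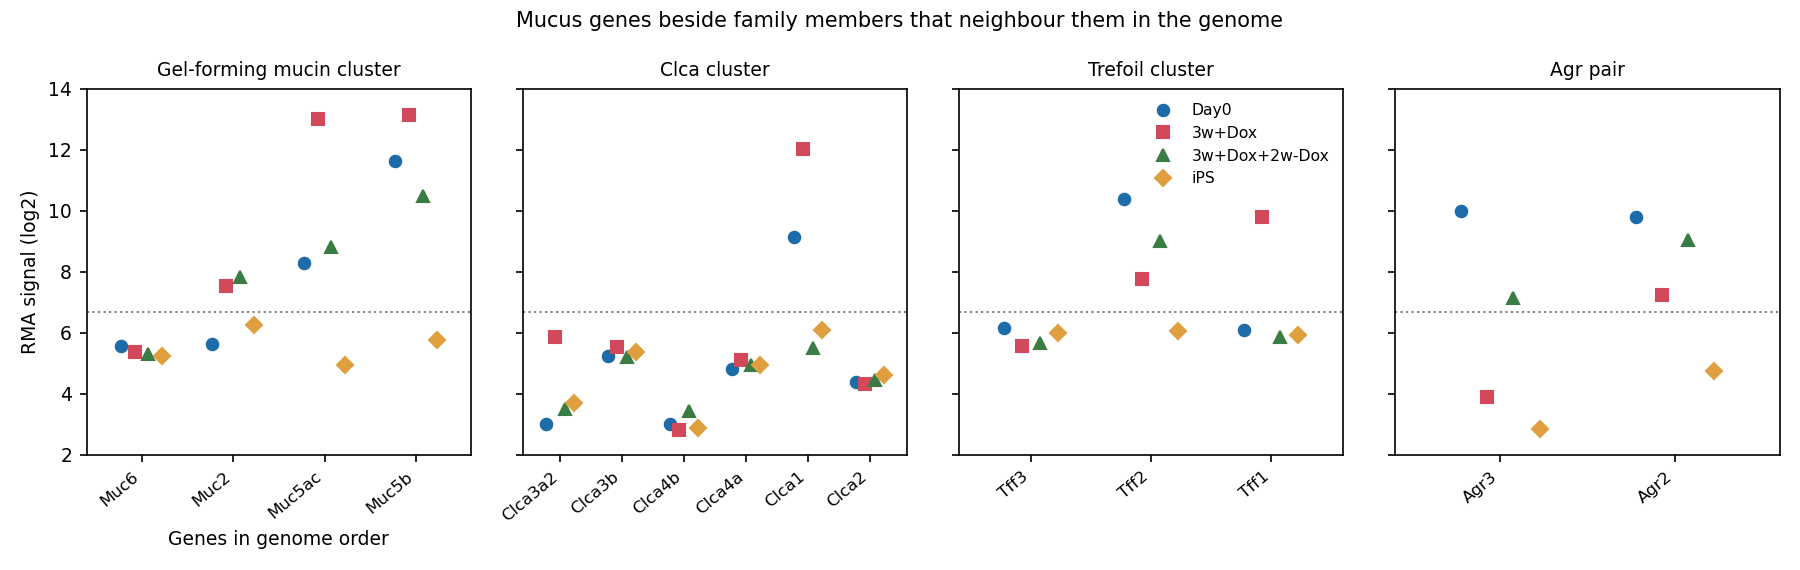
RMA signal (log2, vertical axis) of Muc5ac, Muc5b, Clca1, Tff1, Tff2 and Agr2 beside genes of their family that neighbour them, in RefSeq gene order (horizontal axis), with 1 symbol per population and a dotted line at 6.67. In the mucin, Clca and trefoil clusters only some genes leave the dim range, while Agr2 and Agr3 both do. Tff1 is brightest at 3w+Dox (9.80), where Tff2 is dimmer (7.77) than at Day0.

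Gcnt3, which adds the branch of core 2 and core 4 O-glycans on mucins, read 5.41 (Day0), 9.34 (3w+Dox), 5.81 (withdrawn) and 5.82 (iPS). As for Tff1, 3w+Dox was the only array at or above 6.67, at 15.2-fold over Day0 and 11.5-fold over withdrawn cells. Agr2, a protein disulfide isomerase of the endoplasmic reticulum that is needed for mucin folding, ran the other way, with 9.79, 7.23, 9.04 and 4.75. It was 5.87-fold lower at 3w+Dox than at Day0. Withdrawn cells were 3.50-fold above 3w+Dox and 1.68-fold below Day0. The neighbouring family member Agr3, which is made by ciliated cells, read 10.001, 3.89, 7.15 and 2.85. Ciliated cell markers, 18 of 19 at least 4-fold lower at 3w+Dox, had mean signals of 9.83, 6.42, 8.41 and 6.30 on the 4 arrays, and club cell markers, 12 of 19 lower, had 12.07, 8.97, 9.87 and 5.61. These means dip on the same array as Agr2 and Tff2, and their part in both differences was not tested.

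The transcription factors were not higher in the cells in which the mucus products peaked. Spdef, an ETS family factor, read 8.29 (Day0), 6.79 (3w+Dox), 7.28 (withdrawn) and 6.92 (iPS). It was brightest at Day0 and 2.83-fold lower at 3w+Dox, which does not reach 4-fold. Foxa3, a forkhead factor, read 7.41, 6.27, 6.13 and 7.002 and was 2.19-fold lower at 3w+Dox. The whole range of Foxa3 over the 4 arrays was 1.27 and that of Spdef 1.4997, the smallest among the 10 genes. Muc1, a mucin anchored in the apical membrane whose tail signals into the cell, read 12.97, 12.16, 12.16 and 6.69. It was bright on every array but iPS, where it barely passed 6.67, and 1.76-fold lower than Day0 both at 3w+Dox and in withdrawn cells. Of 12 membrane mucins and related proteins, Muc1 included, 1 was at least 4-fold higher at 3w+Dox (Mcam, an adhesion molecule, by 3.35) and 0 lower, with a list median of -0.06. Muc4, a large membrane mucin of airway epithelium, was 1.40 above Day0 at 3w+Dox and stood at -1.66 after withdrawal.

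After doxycycline was withdrawn, 5 of the 10 genes were at least 4-fold lower than at 3w+Dox (Clca1, Muc5ac, Tff1, Gcnt3 and Muc5b) and 0 were at least 4-fold higher. Over all named genes 0.470% were lower and 0.302% higher in this comparison. The median of the 10 genes was -1.41, beside 0.03 for all named genes. This comparison and the one with Day0 share the 3w+Dox array. Among the 5 genes, Muc5ac ranked 16, Tff1 23, Gcnt3 32 and Muc5b 58 from the lowest difference. Spdef, Foxa3 and Muc1 lay within 2-fold, with differences of 0.48, -0.14 and 0.00044.

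Set against Day0 itself, withdrawn cells had 1 of 10 genes at least 4-fold lower (Clca1) and 0 higher, where 1.85% and 4.05% of all named genes were lower and higher. Muc5ac, Gcnt3, Tff1, Agr2 and Muc1 lay within 2-fold of Day0, at 0.53, 0.41, -0.22, -0.75 and -0.81. Muc5b, Tff2, Foxa3 and Spdef lay between 2-fold and 4-fold below it, at -1.15, -1.39, -1.27 and -1.02. The median was -0.92, beside -0.08 over all named genes.

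In iPS cells 6 of the 10 genes were at least 4-fold lower than at Day0 and 0 higher, where 5.90% and 4.89% of all named genes were lower and higher. The 6 were Muc1 (78.0-fold), Muc5b (58.8-fold), Agr2 (32.9-fold), Tff2 (20.1-fold), Muc5ac (10.1-fold) and Clca1 (8.35-fold). Tff1 and Gcnt3 were dim on both arrays, with differences of -0.18 and 0.42, and Spdef and Foxa3 differed by -1.38 and -0.40. The median of the 10 genes was -3.20, beside 0.0031 over all named genes.

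**Figure D3:**
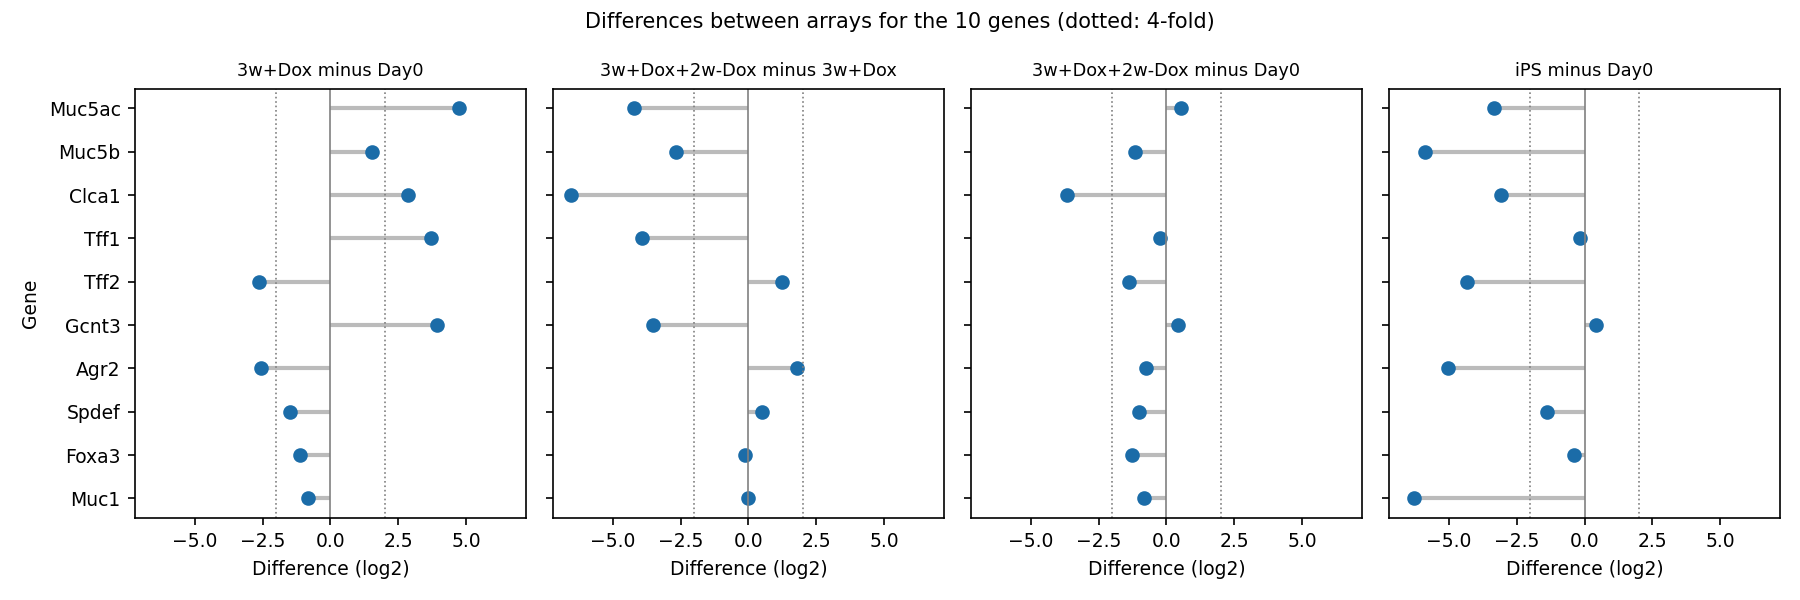
Difference in log2 signal (horizontal axis) of each of the 10 genes (vertical axis) in 4 comparisons of 2 arrays, with dotted lines at 4-fold. Positive values at 3w+Dox minus Day0 reach 4.73 (Muc5ac), negative ones after withdrawal reach -6.53 (Clca1), and no gene is more than 0.53 above Day0 in withdrawn or iPS cells.

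Wider lists place these genes within the steps of mucus production, and counts in them are read against the same shares of all named genes. Of 34 enzymes of O-glycan synthesis, 6 were at least 4-fold higher and 1 lower at 3w+Dox, or 5 and 1 without Gcnt3, with a list median of 0.49. Galnt10, a starter enzyme of O-glycans, was 3.52 higher, Gcnt4, a branching enzyme, 2.86 higher, and Galnt5, another starter enzyme, was at -3.72. After withdrawal Fut2, the fucosyltransferase that makes secretor antigens on mucins, stood at -2.15, Chst4, a sulfotransferase, at -1.96 and B3gnt3, which extends O-glycans, at -1.74. Fut2 read 8.04, 10.53, 8.38 and 6.17 and B3gnt3 7.35, 10.10, 8.36 and 6.20, so both were brightest at 3w+Dox like Gcnt3. Galnt10 read 6.15, 9.68, 9.62 and 7.96 and was as bright in withdrawn cells as at 3w+Dox.

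Folding genes of the endoplasmic reticulum lay near Day0, apart from a few. Of 26, 1 was at least 4-fold higher (Kdelr3, a retrieval receptor, by 2.28) and 3 lower at 3w+Dox, namely Agr3 (-6.11), Agr2 (-2.55) and Creb3l4, a membrane-bound transcription factor (-2.21), with a list median of -0.04. Of 25 genes of granule docking and release, 1 was higher (Marcks, a regulator of secretion, by 3.65) and 1 lower (Cadps2, a priming factor, at -2.03), with a list median of -0.42. At 2-fold without the limit for dim signals, 3 of these genes were higher and 5 lower, beside 9.53% and 8.64% of all named genes. Rab27b, a GTPase of secretory granules, read 7.85, 9.34, 7.89 and 5.26 and its relative Rab27a 11.07, 11.52, 10.14 and 9.45, both brightest at 3w+Dox. The related Rab3d and Rab3a, the Rab27 effectors Sytl2 and Sytl4 and the fusion protein Vamp8, added after their values were seen, were dimmer at 3w+Dox, with differences from Day0 of -0.82, -1.25, -1.28, -1.35 and -0.91. Of 24 secreted goblet cell products, 4 were higher and 4 lower, or 2 and 3 without Clca1, Tff1 and Tff2, with a list median of -0.07. Klk1, a kallikrein protease, read 6.76, 10.59, 4.41 and 7.92, and Bpifb1, a defence protein of airway secretions, 12.95, 6.35, 9.73 and 5.53.

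**Figure D4:**
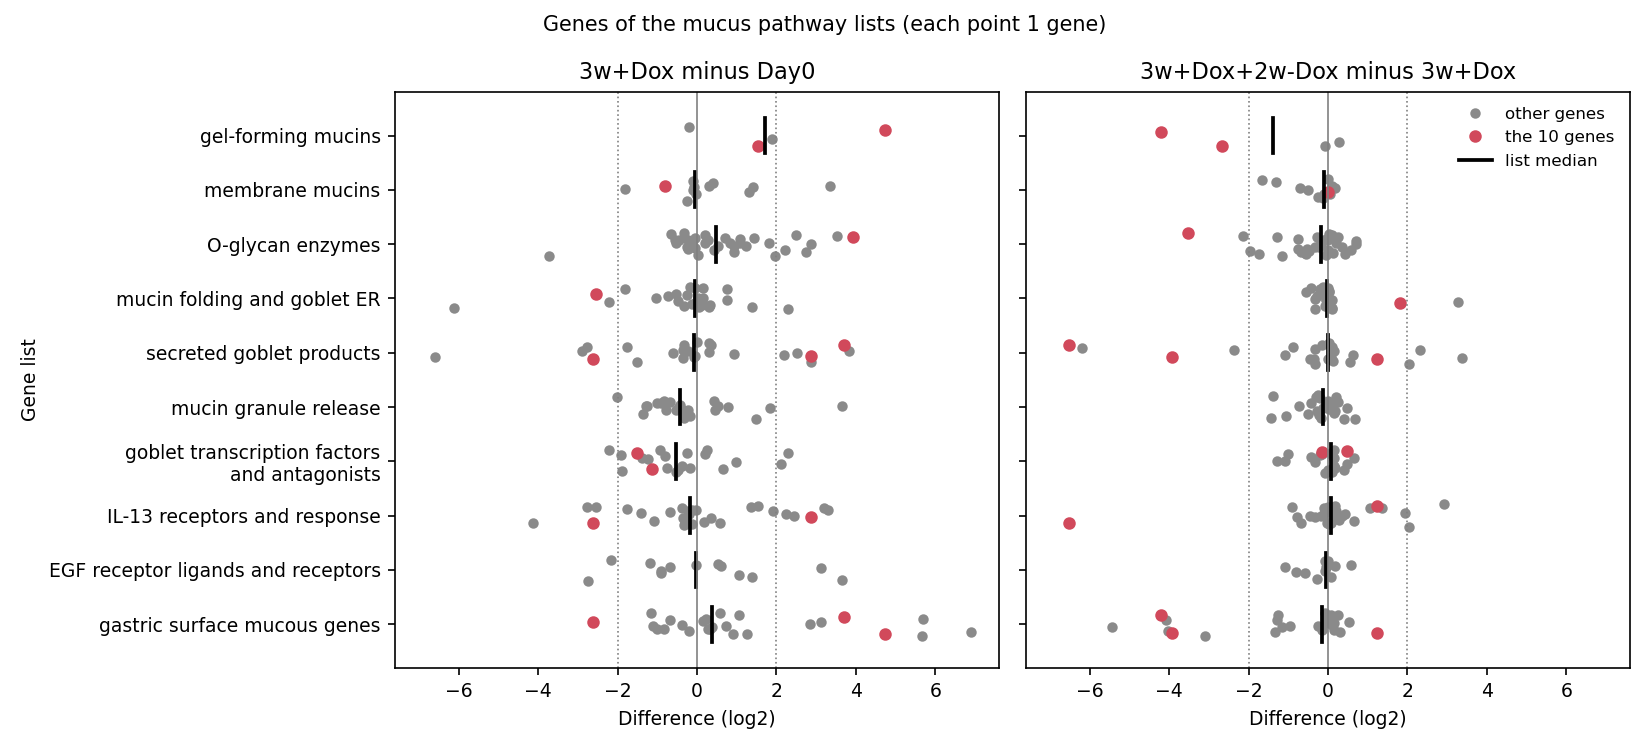
Difference in log2 signal (horizontal axis) for genes of 10 lists (vertical axis) at 3w+Dox minus Day0 (left) and withdrawn minus 3w+Dox (right), 1 point per gene, with the described genes in red, list medians as black bars and dotted lines at 4-fold. At 3w+Dox the lists spread to both sides, with medians of 0.49 for O-glycan enzymes and -0.54 for transcription factors.

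Of 21 transcription factors that favour or restrain the goblet state, 2 were higher and 1 lower at 3w+Dox, with or without Spdef and Foxa3, and the list median was -0.54. Sox9 was 2.28 and Klf4 2.12 higher, Sox2 was at -2.21 and Hes1, a target of Notch, at -1.93. RNA of a Klf4 or Sox2 transgene, if there was one, cannot be told apart here from that of the cell's own gene. Foxa2 and Nkx2-1, which are known to hold back mucous differentiation in the lung and are given here after their values were seen, read 10.67, 9.75, 9.67 and 6.93, and 11.17, 9.93, 10.07 and 5.94. Both were dimmer at 3w+Dox than at Day0 by less than 4-fold.

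Upstream signals known to raise Muc5ac gave mixed readings. Il13 and Il4, the cytokines of allergic mucous change, read at most 6.25 and 4.72 on any array. Il4ra, their shared receptor chain, read 7.90, 11.10, 10.97 and 8.63. Of 28 genes of the interleukin 13 receptors and response, 5 were at least 4-fold higher and 4 lower at 3w+Dox, or 4 and 3 without Clca1 and Tff2, with Tslp, an epithelial cytokine, 3.29 higher and Pon1, a paraoxonase, at -4.14. The list median was -0.17. After withdrawal Tslp was a further 1.94 higher and Il4ra was at -0.13. Of 13 epidermal growth factor receptors, ligands and sheddases, 2 were higher and 2 lower at 3w+Dox, with a list median of -0.02. Ereg, a ligand, read 5.97, 9.62, 10.19 and 7.78, and Egfr, its receptor, 7.70, 10.83, 10.82 and 7.96, and after withdrawal they differed from 3w+Dox by 0.57 and -0.0051. The part of these signals in the Muc5ac differences was not tested.

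The list of gastric surface genes, which shares Muc5ac and Tff1 with the goblet state, included several with the same course. It also holds Muc6, the mucin of gastric glands. Of 25, 7 were at least 4-fold higher and 1 lower at 3w+Dox, or 5 and 0 without Muc5ac, Tff1 and Tff2, with a list median of 0.37. After withdrawal 6 were lower and 0 higher, or 4 and 0 without those genes. Anxa10, an annexin of gastric surface cells, read 4.69 (Day0), 11.59 (3w+Dox), 6.15 (withdrawn) and 4.43 (iPS). Psca, a surface antigen of stomach and bladder epithelium, read 5.48, 11.14, 7.10 and 5.35, and Mucl3, a mucin-like protein, 6.52, 9.36, 5.29 and 5.70. Ctse, the protease cathepsin E, read 6.48, 12.17, 10.88 and 5.31 and was still bright in withdrawn cells. Gkn1 and Gkn2, of the same list, read 5.62, 6.89, 5.64 and 5.93, and 5.83, 6.56, 5.40 and 5.57. At 2-fold without the limit for dim signals, 9 of the 25 were higher and 4 lower at 3w+Dox. Over all named genes these shares were 9.53% and 8.64%. The lower genes were Tff2, Sult1c2, Capn8 and Aqp5, at -2.63, -1.17, -1.10 and -1.02. Hnf4a and Pdx1, factors of gut and stomach epithelium, read 6.23, 6.45, 6.49 and 7.28, and 5.71, 6.04, 5.79 and 5.99.

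Markers of other cells also differed between the arrays. Of the basal and squamous, fibroblast and leukocyte lists, only the first had a lower mean in withdrawn cells than at 3w+Dox. The mean of pluripotency markers was also lower, at 6.01 (3w+Dox) and 5.77 (withdrawn). That of the gastric surface genes was lower too, at 8.01 and 6.87. Basal and squamous markers, 7 of 16 at least 4-fold higher at 3w+Dox, had mean signals of 5.99 (Day0), 7.53 (3w+Dox), 6.42 (withdrawn) and 6.40 (iPS). In withdrawn cells 4 of these 16 were at least 4-fold lower than at 3w+Dox and 1 was higher (Dapl1, by 2.43). Krt13, a squamous keratin, read 5.96, 10.92, 5.54 and 5.43. The basal markers Krt5 and Trp63 read 6.20, 5.93, 6.56 and 6.10, and 6.10, 6.36, 7.21 and 6.13. Fibroblast markers, 15 of 16 higher at 3w+Dox, had means of 6.22, 10.85, 10.98 and 8.85, and leukocyte markers, 9 of 17 higher, 6.15, 7.81, 7.91 and 6.10. After withdrawal, 0 fibroblast and 0 leukocyte markers were at least 4-fold higher or lower than at 3w+Dox. The part of squamous cells, fibroblasts and leukocytes in the differences of the 10 genes was not tested.

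Likeness to other genes was measured as the distance between profiles over the 4 arrays, each profile centred on its own mean, so that a distance near 0 means the same course in log2 units. Over 4 arrays this is a description only. Among the 10 genes the closest were Tff1 and Gcnt3 (distance 0.52), Spdef and Foxa3 (0.92) and Tff2 and Agr2 (0.96). Muc5ac and Muc5b lay 2.40 apart. Distances were not scaled to the range of a gene, so genes that vary little lie close even where their courses differ. Spdef and Foxa3 ranged over only 1.4997 and 1.27 on the 4 arrays, and Muc5ac and Muc5b over 8.06 and 7.403. The distance of Spdef to Foxa3 is therefore not compared with that of Muc5ac to Muc5b. The profiles nearest to Muc5ac were those of Atp10b (1.46), Upk1b, a uroplakin of bladder surface cells (1.54), Itgb6, an integrin of activated epithelium (1.90), Sprr2a3 (2.13) and Scel, a protein of the cornified envelope (2.15). Upk1b read 8.76, 11.86, 8.20 and 5.67. Nearest to Gcnt3 was Upk3bl (0.15), with 6.35, 10.37, 6.63 and 6.79, then Cyp4a10 (0.37) and Anxa9 (0.40). Nearest to Muc5b were Vtcn1 (1.02), AW112010 (1.22) and the membrane mucin Muc4 (1.26), which read 9.82, 11.22, 9.57 and 5.33. Nearest to Clca1 were Ly6g6c (1.08), Aldh3a1, an aldehyde dehydrogenase (1.74), and Gsdmc2, a gasdermin (2.10). Nearest to Muc1 were AU021092 (0.17), the water channel Aqp5 (0.48) and the surfactant protein gene Sftpd (0.48), and nearest to Tff2 were Tspan12 (0.24) and Gdpd2 (0.30).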

How the data were processed

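RNA of 4 mouse cell populations, grouped by sample title, was measured on Affymetrix arrays, 1 per population. RNeasy extraction and the Ambion WT kit are given per the labels' protocols. The authors deposited log2 signals. The submitters' processing notes list RMA, affy and R 3.0.2, and the values (1.70 to 13.85) show a log2 scale, with genome build and annotation not given in the sources used here. Of 25206 probe sets, 23185 carried 1 gene symbol in the platform annotation, and all of these were found in RefSeq (GRCm38.p6).

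Differences of log2 signals were taken in 4 comparisons without further normalization (Python 3.11.15, pandas 2.3.3). The number of arrays limits precision. The 10 genes, 18 other lists (329 genes, 316 measured), thresholds and alternatives were chosen with earlier results of these data known. Named besides the 10 genes are up to 4 genes per list with the largest difference, cell type markers, family members next to a gene in the genome and the 5 nearest profiles. Other named genes were chosen after their values were seen. Alternatives changed the threshold (2-fold, 8-fold), the filter on dim signals (none, 75th percentile), the normalization (second quantile step, centring on brighter genes) and the floor (25th percentile).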

Additional observations from a re-analysis of the deposited data

How the results depend on the processing

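Counts of the 10 genes changed by over 1.5 times only with the threshold. At 2-fold, the cells at 3w+Dox had 4 genes below Day0, and withdrawn cells had 2 above 3w+Dox (Agr2 and Tff2) and 5 below Day0. These counts were the same without the limit for dim signals. Without that limit the shares of all named genes were 8.64%, 1.84% and 8.73%. At 8-fold, 0 genes lay below Day0 at 3w+Dox. The other counts stayed within 1.5 times of those reported under every alternative tried. A second quantile normalization moved no difference of the 10 genes by more than 0.105 and centring on brighter genes by no more than 0.12. Raising dim values to the 25th percentile moved differences by up to 0.32 (Agr2 in iPS cells against Day0, from -5.04 to -4.72). Under none of these 3 did a counted difference change sign. Centring shifted the median of all named genes by 0.12 in the comparison of withdrawn cells with Day0, in which Spdef then stood at -0.90. With 1 array per population no array could be left out. No paired analysis was possible because each population has 1 array and no result comes from a test.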

Other observations

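In iPS cells the membrane mucins and O-glycan enzymes differed from Day0 in both directions. Of 12 measured membrane mucins and related proteins, 3 were at least 4-fold lower (Muc1 at -6.28, Muc4 at -4.49 and Muc20 at -3.87) and 3 higher. The latter, named after their values were seen, were Mcam, an adhesion molecule (6.34 at Day0 and 10.35 in iPS cells), Podxl, a sialomucin known from pluripotent cells (6.79 and 9.999), and Muc3a (5.40 and 8.07). Among 34 O-glycan enzymes, 2 were higher and 3 lower, with B3gnt5 at 5.91 and 9.19, B3gnt7 at 6.42 and 9.06, Galnt5 at 9.43 and 5.40 and Galnt3 at 10.28 and 7.18. Of 25 granule release genes 6 were lower and 1 higher, among them Sytl2, an effector of Rab27 (-4.02), and Vamp8, the vesicle fusion protein of mucin granules (-3.73).

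Dmbt1, a mucin-like defence protein of the secreted list that was named after its values were seen, had a course unlike that of any of the 10 genes. It read 4.81 (Day0), 5.75 (3w+Dox), 8.06 (withdrawn) and 4.64 (iPS), so it was brightest after withdrawal.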
